A study of Mus musculus with 9 samples.

Results

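The mouse Oas1 cluster holds 8 genes, Oas1a to Oas1h, and all 8 were found by gene name among the 28052 genes of the deposited count matrix. They were followed across 9 pools of oocytes, 3 each from XX, XO and XY females, and each pool held 30 oocytes, 10 of 50–55 μm and 20 of 55–60 μm. All females are labelled C57BL/6 and 18 dpp. The XY females and their XX littermates were sired by B6.Y TIR males, whereas the XO females were sired by Paf carrier males whose C3H/HeSnJ background had been crossed back to B6, and they carried a wild-type X of maternal origin. Genotype and cross can therefore not be told apart in the comparisons with XO oocytes. Transcripts were counted by Smart-seq3, in which a unique molecular identifier (UMI) marks the 5′ end of each cDNA molecule.

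OAS1 proteins belong to the oligoadenylate synthetases, enzymes that are switched on by double-stranded RNA and then join ATP into oligoadenylates, which set off the decay of RNA. The genes are best known as targets of interferon in the defence against viruses. In the mouse the ancestral gene has been copied several times. Oas1a and Oas1g encode active synthetases, Oas1b is the flavivirus resistance gene, which is truncated in most laboratory strains, and Oas1d encodes an oocyte protein without synthetase activity.

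The cluster lies on chromosome 5 (chr5:120786226-120921652, GRCm38) and spans 135427 bases. Oas1e, Oas1c, Oas1g and Oas1a are read from the minus strand and Oas1b, Oas1f, Oas1h and Oas1d from the plus strand. The annotation gives 7 members as protein coding and Oas1b as a polymorphic pseudogene. The members are similar in their coding sequence, which bears on how surely a UMI can be assigned. Oas1a and Oas1g were the closest pair, with an identity of 96.7% over 1104 aligned bases and a shared run of 526 identical bases. Oas1d and Oas1e had an identity of 90.8%, and no pair other than Oas1a and Oas1g shared a run of more than 86 bases. How the authors assigned reads that match more than 1 member is not given in the sources used here. The split of UMIs between Oas1a and Oas1g is uncertain for that reason, and so are their levels if such reads were left out. Near the start of the coding sequence Oas1d and Oas1e were closer, with an identity of 98.7% over the first 150 coding bases. For reads that reach these bases, the separate levels and shares of Oas1d and Oas1e carry a limit of the same kind. The first 60 coding bases (GRCm38, Gencode vM21) are shown as part of this stretch. By the annotation, the 5′ ends that the assay reads lie in untranslated bases before them, whose identity was not measured. Capitals mark the bases that differ from Oas1e at the same position.
Oas1e: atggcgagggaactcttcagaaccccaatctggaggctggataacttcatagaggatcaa
Oas1d: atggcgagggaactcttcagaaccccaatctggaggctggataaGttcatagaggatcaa
Oas1c: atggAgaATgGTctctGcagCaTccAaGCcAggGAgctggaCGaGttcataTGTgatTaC
Oas1a: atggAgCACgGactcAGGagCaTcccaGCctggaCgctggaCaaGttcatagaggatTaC
Oas1g: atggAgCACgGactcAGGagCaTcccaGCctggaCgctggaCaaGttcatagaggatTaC
Oas1d differed from Oas1e at 1 of these 60 bases and Oas1c at 22. Oas1a and Oas1g were identical to each other and differed from Oas1e at 17. The first coding exon of Oas1h was longer, with 204 coding bases against 183 in Oas1e, so Oas1h was not set out by position.

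The RefSeq promoter table (GRCm38.p6) matched 5 of the 8 members by symbol. The 150 bases before each start are shown for these 5, since their counted levels in oocytes differed by orders of magnitude. Capitals mark GAAANNGAA, the letters searched for the core of the interferon-stimulated response element, on either strand and with overlapping matches merged. The positions are chr5:120907526-120907675 (Oas1a, minus strand), chr5:120887614-120887763 (Oas1g, minus strand), chr5:120812515-120812664 (Oas1c, minus strand), chr5:120847217-120847366 (Oas1f, plus strand) and chr5:120861272-120861421 (Oas1h, plus strand).
Oas1a: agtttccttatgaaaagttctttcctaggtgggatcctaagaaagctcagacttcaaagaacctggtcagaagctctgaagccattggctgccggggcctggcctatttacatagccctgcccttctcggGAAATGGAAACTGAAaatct
Oas1g: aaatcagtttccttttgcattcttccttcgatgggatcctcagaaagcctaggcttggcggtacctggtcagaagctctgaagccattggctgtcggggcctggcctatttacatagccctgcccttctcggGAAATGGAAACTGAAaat
Oas1c: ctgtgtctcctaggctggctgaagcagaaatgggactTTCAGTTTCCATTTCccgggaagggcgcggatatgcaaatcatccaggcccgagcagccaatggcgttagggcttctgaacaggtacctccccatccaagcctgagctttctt
Oas1f: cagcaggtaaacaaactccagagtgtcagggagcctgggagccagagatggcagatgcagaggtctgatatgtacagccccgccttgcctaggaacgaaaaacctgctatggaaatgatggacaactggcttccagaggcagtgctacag
Oas1h: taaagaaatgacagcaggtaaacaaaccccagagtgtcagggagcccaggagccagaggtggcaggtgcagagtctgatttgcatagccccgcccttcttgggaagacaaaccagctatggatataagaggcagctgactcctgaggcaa
Oas1a and Oas1g each held 2 overlapping matches directly before the start, and Oas1c held 2 on the opposite strand farther upstream. No match to these letters was found in the windows of Oas1f and Oas1h, and 8.57% of all 27025 promoter windows of the table, which start farther upstream and end after the start, held at least 1. The E-box letters CANNTG gave 2 matches each in Oas1f and Oas1h and none in Oas1a, Oas1c and Oas1g, against 72.1% of all windows. TAATTA and TAATTG, the homeobox core bound by the oocyte factor NOBOX, and the TATA box letters TATAAA were found in none of the 5 windows. They occurred in 5.31%, 8.15% and 14.2% of all windows. The upstream sequence of Oas1a matched that of Oas1g at 86% of 150 bases and that of Oas1f matched Oas1h at 77.3%, whereas the other pairs reached at most 56.7%.

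The pools held between 2130145 and 3157338 UMIs on genes. Levels are given as normalized CPM, the UMI counts divided by the library total and the ERCC spike-in factor of the authors. This factor was reproduced by scaling the ERCC counts relative to the ERCC total of each pool. The levels are therefore not scaled to the amount of spike-in, and ERCC made up 0.204% to 0.862% of the UMIs. All 10 oocyte markers examined had UMIs in every pool. The 6 granulosa markers analysed summed to between 48.0 and 92.1 normalized CPM, the 5 theca and stroma markers to between 1.13 and 6.97, and the 3 blood and immune markers to at most 1.69. The 3 endothelial markers summed to between 16.6 and 132.1, most of it Pecam1, while Cdh5 and Kdr reached at most 5.11 and 1.39. Pecam1 was highest in XO2 and XO3, at 109 and 132 normalized CPM, and lowest in XO1, at 14.5, the same pools in which Oas1 was highest and lowest, and its part in the Oas1 results was not tested. Some libraries stood apart, XO1 and XY1 in one way and XO2 and XO3 in another. Mitochondrial transcripts made up 13.1% of the gene UMIs in XO1 and 10.8% in XY1, against 2.65% to 6.02% in the others. The zona pellucida gene Zp2 was at 4919 normalized CPM in XO1 and 10049 in XY1, against 14837 to 17150 in the others. XO2 and XO3 had high levels of several other oocyte markers, but not of all. The zona pellucida gene Zp1 was at 759 and 2166 normalized CPM in them, against at most 129 in the other 7 pools, the transcription factor gene Nobox at 522 and 1138, against 51.6 to 185, and the maternal gene Ooep at 3073 and 5114, against 467 to 1197. Zp3, Gdf9 and Kit were also highest in XO2 and XO3. Ddx4 was not, at 438 and 420 in them against 402 to 759 in the others. Bmp15 and Figla were highest in XO3, but in XO2, at 864 and 12.9, they lay below XX3, at 1068 and 15.8. The Oas1 results are given with and without XO1 and XY1, which were picked out after the data were seen. Without XO1 the XO genotype rests on XO2 and XO3, and the part of their marker levels in the Oas1 differences was not tested. Because each value comes from a pool, fewer oocytes that express a gene and less RNA per oocyte cannot be told apart.

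The oocytes contained abundant Oas1 transcripts, and almost all came from 4 members. Oas1e, Oas1c, Oas1d and Oas1h together held between 97.8% and 99.8% of the Oas1 UMIs of a pool. Summed over the 8 members, the level was 3528, 3159 and 6618 normalized CPM in XX1, XX2 and XX3, 657, 13697 and 15522 in XO1, XO2 and XO3, and 1125, 4544 and 7202 in XY1, XY2 and XY3. On this scale the lowest levels were thus those of XO1 and XY1, and the highest those of XO2 and XO3. Relative to ERCC UMIs XX3 would be the highest, with 21723 Oas1 UMIs to 5388 ERCC UMIs. XO2 had 26495 to 8164 and XO3 had 27496 to 9339. Oas1 transcripts made up 1.16% of all gene UMIs in XO2 and 0.055% in XO1.

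Oas1e had the highest level of the family in every pool. It was at 1624, 1338 and 2620.1 normalized CPM in XX1 to XX3, at 220.0, 4789.8 and 5269 in XO1 to XO3, and at 355, 1697 and 2585 in XY1 to XY3. In XO2 it ranked 31st among all genes of the pool. The XX and XY pools overlapped, and the XO pools lay on both sides of them.

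Oas1c, the neighbour of Oas1e on the same strand, was at 743, 573 and 1381 normalized CPM in XX1 to XX3, 141, 3057 and 3595 in XO1 to XO3, and 332, 1058 and 1702 in XY1 to XY3. Oas1d, at the other edge of the cluster, was at 533, 658 and 1369 in XX1 to XX3, 110.3, 3401 and 4075 in XO1 to XO3, and 157, 928 and 1594 in XY1 to XY3. Oas1h was at 618, 583 and 1221 in XX1 to XX3, 171, 2373 and 2454 in XO1 to XO3, and 259, 847 and 1285 in XY1 to XY3. In each of these genes XO1 was the lowest of the 9 pools, XY1 the next, and XO2 and XO3 the highest.

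**Figure D1:**
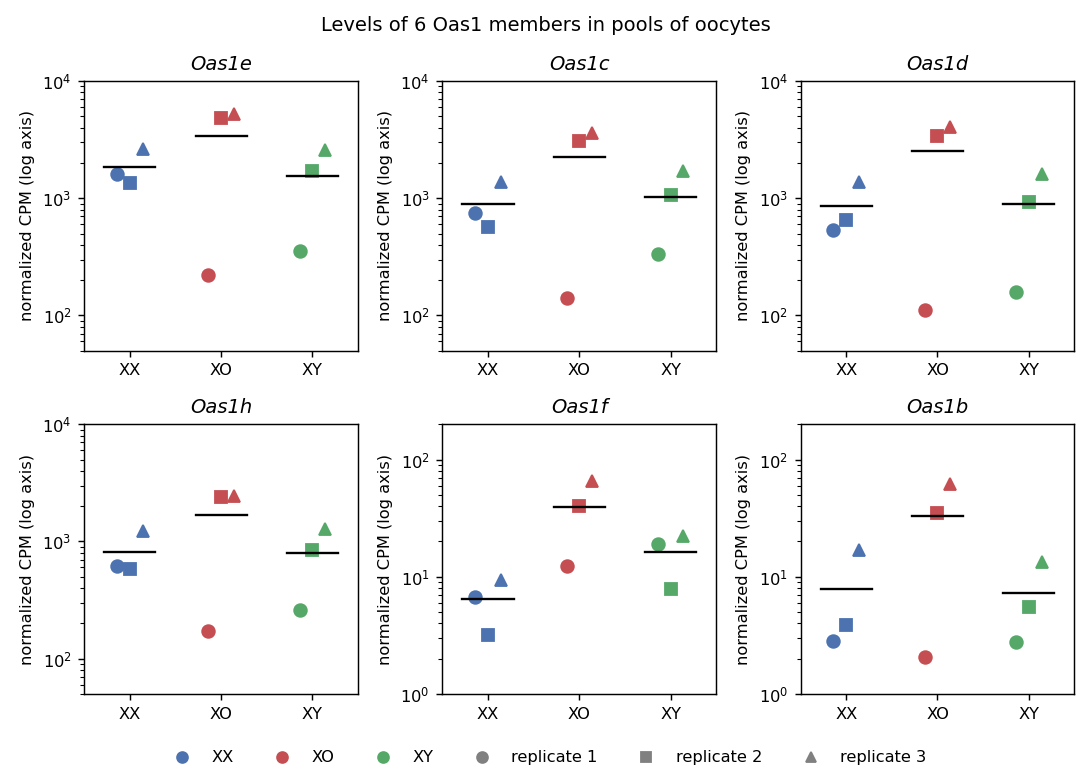
Levels of the 6 Oas1 members that could be tested, in normalized CPM on a log axis, for XX, XO and XY pools. Each point is a pool, its shape gives the replicate number and the black line is the mean of 3. The circles of XO1 and XY1 lie far below the other pools in Oas1e, Oas1c, Oas1d and Oas1h. In Oas1f all 3 XO pools lie above all 3 XX pools on this scale, but not relative to gene UMIs alone.

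Oas1f and Oas1b were present at low levels. Oas1f was at 6.77, 3.15 and 9.44 normalized CPM in XX1 to XX3, 12.4, 39.8 and 66.0 in XO1 to XO3, and 19.1, 7.81 and 22.3 in XY1 to XY3. On this scale all XO pools, XO1 included, were above all XX pools, and the XY pools overlapped both. Relative to gene UMIs alone XX and XO overlapped, with 24 of 2306155 UMIs in XO1 and 31 of 2632585 in XX3. How many of all genes separate XX from XO in this way was not counted. Oas1b was at 2.85, 3.85 and 16.8 in XX1 to XX3, 2.07, 35.2 and 62.1 in XO1 to XO3, and 2.79, 5.53 and 13.3 in XY1 to XY3. The 3 genotypes overlapped in Oas1b, with XO1 the lowest of all pools and XO2 and XO3 the highest.

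The counts of the active synthetases Oas1a and Oas1g were close to the detection limit. The 2 genes are identical over the 183 coding bases of the first coding exon. If reads that match both were left out, both counts would be low at any level, and this could not be checked. Oas1g had 9 UMIs over the 9 pools, with at most 3 in a pool, and none in XO1 and XY1. Oas1a had 2 UMIs, both in XO2. None was seen in the 3 XX or the 3 XY pools, where a count of 0 allows up to 3 UMIs over the genotype, or 0.335 normalized CPM in XX and 0.351 in XY by counting error alone. Both genes were removed by the filter on low counts and were not tested.

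Per kilobase of transcript, the mean over the 9 pools was 1265 normalized CPM for Oas1e, 705 for Oas1d, 640.2 for Oas1h and 610.2 for Oas1c. Oas1f followed at 14.03, Oas1b at 8.76, Oas1g at 0.216 and Oas1a at 0.0609. Oas1e was above Oas1c, Oas1d and Oas1h in 9 of 9 pools on this scale. The order of those 3 was not fixed, since Oas1c was above Oas1d in 4 of 9 pools and Oas1d above Oas1h in 3 of 9. As 1 UMI marks 1 molecule at its 5′ end, the order without length is given too. It was Oas1e, Oas1d, Oas1c, Oas1h, Oas1f and Oas1b, at means of 2277, 1425, 1398, 1090.3, 20.8 and 16.0 normalized CPM.

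**Figure D2:**
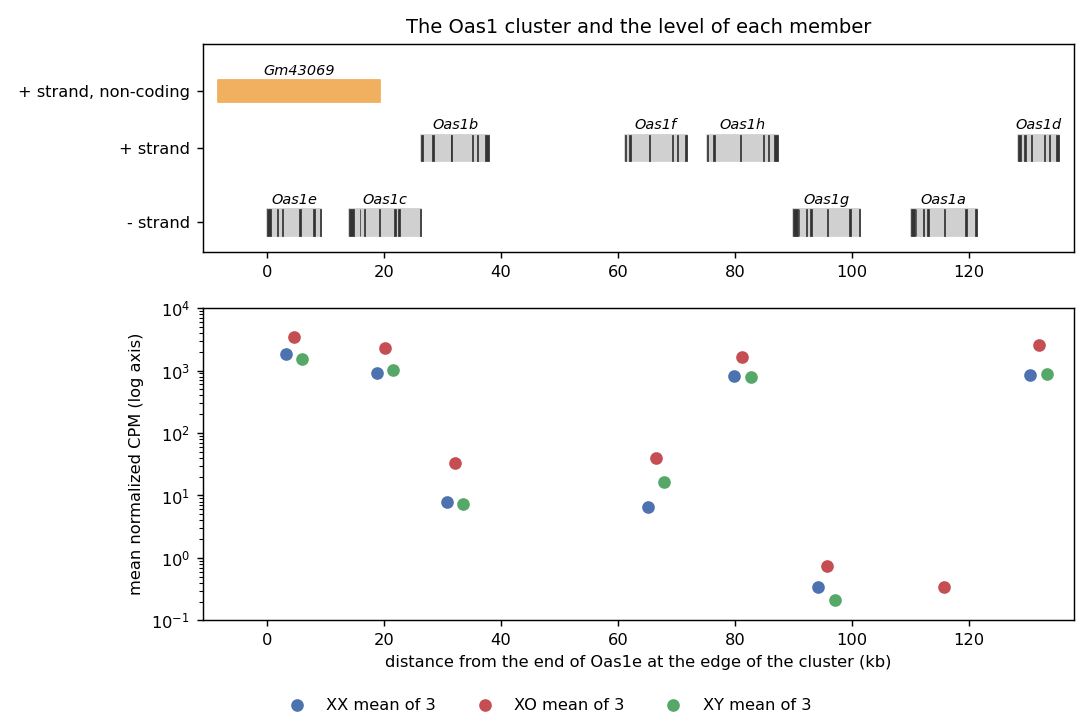
Top, the Oas1 members by strand, with exons in black and gene bodies in grey, and the non-coding gene Gm43069, along the distance in kb from the edge of the cluster. Bottom, the mean level of each member in 3 pools per genotype on a log axis, with the 4 abundant members at both ends and in the middle of the cluster. The means of Oas1a in XX and XY are 0 and are not drawn.

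Across the 9 pools the 4 abundant members moved together. The Pearson coefficients of log2(normalized CPM + 1) between their 6 pairs lay between 0.977 and 0.996, and between 0.975 and 0.992 over the 7 pools without XO1 and XY1. They are a description, since the values of a pool share their library and scaling.

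The comparison of XX with XO oocytes asks whether the number of X chromosomes goes with a different transcript level. The mean level of Oas1f was 6.45 ± 3.16 normalized CPM in XX (SD, n = 3) and 39.4 ± 26.8 in XO oocytes (SD, n = 3), a 6.11-fold difference. In edgeR's quasi-likelihood test it was the only member called, at an unadjusted p of 0.00314 and a log2 difference (XX minus XO) of -2.59 ± 0.66 (SE). The Benjamini-Hochberg adjusted p over all tested genes was 0.203 in edgeR, whereas DESeq2 gave -2.20 with an adjusted p of 0.0282. In the edgeR fit this is 1 of 6 members tested, against 18.1% of 10993 tested genes called in either direction and 16.7% called lower in XX. All 6 members had lower fitted levels in XX, with a median log2 difference of -1.45, against -0.46 over all tested genes. With factors taken from the genes (TMM) in place of the spike-in factors, these medians were -0.90 and -0.03. For Oas1e the means were 1860.5 ± 673 in XX and 3426 ± 2787 in XO oocytes (SD, n = 3 each), a log2 difference of -0.88 ± 0.99 (SE) with an unadjusted p of 0.395 in the same edgeR test. Oas1c, Oas1d and Oas1h had log2 differences of -1.33, -1.57 and -1.05 and missed the threshold, as did Oas1b with -2.06 and an unadjusted p of 0.0748. With the 2 surrogate variables of sva as covariates in edgeR, the difference of Oas1f shrank to -0.71 ± 0.48 (SE) and was no longer called (unadjusted p = 0.153 in edgeR). Oas1d was the member called in that fit, at -0.53 ± 0.25 (SE, unadjusted p = 0.046 in edgeR), when 14.3% of all tested genes were called.

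The result depended on a single library. Without XO1 all 6 members were called lower in XX than in XO oocytes, and 36.9% of the tested genes were then called in either direction. Without XO1 and XY1 all 6 were called as well, with log2 differences of -3.01 for Oas1f, -2.59 for Oas1b, -2.13 for Oas1d, -1.89 for Oas1c, -1.58 for Oas1h and -1.43 for Oas1e. Their adjusted p-values in edgeR then lay between 0.00121 and 0.00684, while 41.7% of all tested genes were called. These p-values are only a description, since XO1 and XY1 were picked out after the data were seen. They are also the pools with the lowest Oas1 totals. The means of XO2 and XO3 were 8.20 times the XX mean for Oas1f and 2.70 times for Oas1e. Same-numbered XX and XO pools were not taken as paired, and the numbers serve here only to set pools side by side. The Oas1 total was 5.37-fold higher in XX1 than in XO1 but 4.34-fold lower in XX2 than in XO2 and 2.35-fold lower in XX3 than in XO3. Oas1f was lower in XX1, XX2 and XX3 than in the XO pool of the same number, by 1.84-, 12.6- and 6.99-fold. The part of the mitochondrial share and of Zp2 in these differences was not tested.

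The choice of matrix turned the direction. In the log2 matrix from which the authors had regressed out batch effects, limma called Oas1e, Oas1c, Oas1d and Oas1h higher in XX than in XO oocytes, by 1.96, 1.47, 1.59 and 1.34 on the log2 scale. Oas1f was lower there too, with a log2 difference of -1.19. In that matrix 44.1% of the genes were called. The limma fit took no account of the effects already regressed out, so its p-values can be too small and its calls too many.

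The comparison of XX oocytes with those of XY littermates asks what a Y in place of an X changes. The levels of the abundant members were close on average. The Oas1 total was 4435 ± 1899 normalized CPM in XX and 4290.3 ± 3047 in XY oocytes (SD, n = 3 each). None of the 6 members was called at an unadjusted p below 0.05 by edgeR or DESeq2, against 5.8% of all tested genes called by edgeR and 4.39% called lower in XX. The log2 differences (XX minus XY) lay between -1.33 for Oas1f and 0.27 for Oas1e, with standard errors of 0.65 to 1.08. Such errors leave differences of several fold undetectable in this fit. With 2 surrogate variables the standard errors were smaller, and Oas1e was called higher in XX, at 0.37 ± 0.17 (SE, unadjusted p = 0.0379 in edgeR), when 20.4% of all tested genes were called. Oas1f was at 16.4 ± 7.62 in XY (SD, n = 3), and its unadjusted p was 0.0692 in the edgeR test. XX and XY pools were not taken as paired either. Oas1f was lower in each XX pool than in the XY pool of the same number, by 2.82-, 2.48- and 2.37-fold, and was called without XO1 at an unadjusted p of 0.0163 (edgeR, adjusted p = 0.309). For the Oas1 total the direction was mixed, 3.14-fold higher in XX1 than in XY1, and 1.44- and 1.09-fold lower in XX2 and XX3.

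The comparison of XY with XO oocytes contrasts a single X with and without a Y. All 6 members had lower fitted levels in XY, with a median log2 difference (XY minus XO) of -1.21 against -0.30 over all tested genes. None was called by edgeR, where 9.93% of all tested genes were and 8.24% were called lower in XY. DESeq2 called 1, when 10.2% of all tested genes were called. The largest differences were those of Oas1b, at -2.16 ± 1.04 (SE, unadjusted p = 0.0648 in edgeR), and Oas1d, at -1.50 ± 1.11 (SE, unadjusted p = 0.206 in edgeR). Libraries with the same number deviated together in these genotypes (correlations of 0.83, 0.278 and 0.773), but so did XO2 and XY3 (0.721). A fit that held the replicate number as a block called Oas1b at -1.99 and Oas1f at -1.24, when 16.6% of all tested genes were called. The unadjusted edgeR p-values were 0.00641 and 0.0426, and the adjusted p-values 0.229 and 0.287. With 2 surrogate variables Oas1d was the member called, at -0.51 (unadjusted p = 0.0134 in edgeR), when 18.2% of all tested genes were called, and the difference of Oas1f was -0.05 (unadjusted p = 0.872 in edgeR). Without XO1 and XY1 all 6 were called lower in XY, with log2 differences from -2.35 for Oas1b to -1.18 for Oas1h and adjusted p-values in edgeR from 0.047 to 0.0727, when 27.8% of all tested genes were called. Here too XO1 and XY1 were left out after the data were seen. At replicate number 1 the Oas1 total was 1.71-fold higher in XY1 than in XO1, and at numbers 2 and 3 it was 3.01- and 2.16-fold lower in XY. In the batch-regressed matrix the 4 abundant members were called higher in XY than in XO by limma, by 1.02 to 1.37 on the log2 scale, when 44.0% of the genes were called, and Oas1f was at -0.05 (unadjusted p = 0.888 in limma).

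**Figure D3:**
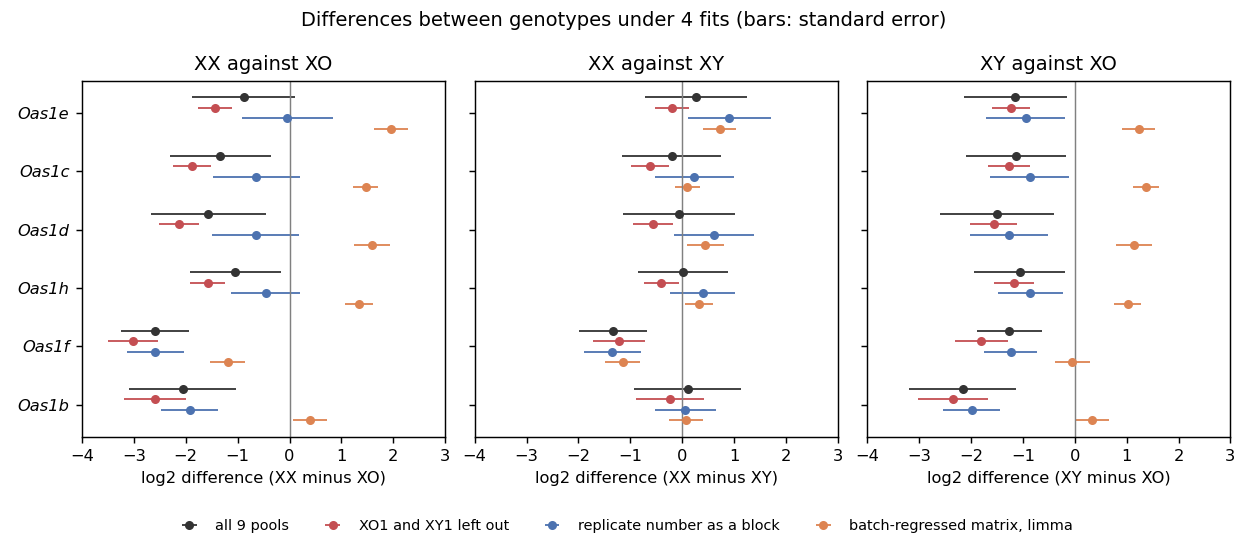
Log2 differences between genotypes for the 6 tested members, with bars of 1 standard error, in the fit to all 9 pools, without XO1 and XY1, in the blocked fit and in the batch-regressed matrix. In XX against XO, Oas1f lies below 0 in all 4 fits, whereas Oas1e, Oas1c, Oas1d and Oas1h move from negative to positive values in the batch-regressed matrix.

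The make-up of the Oas1 transcripts within a pool does not depend on scaling, so the share of each member in the Oas1 UMIs was compared as well. Oas1e took 46.0%, 42.4% and 39.6% of the Oas1 UMIs in XX1 to XX3, 33.5%, 35.0% and 33.9% in XO1 to XO3, and 31.6%, 37.3% and 35.9% in XY1 to XY3. Every XX pool was thus above every XO and XY pool. The means were 42.7% ± 3.22 in XX oocytes, 34.1% ± 0.757 in XO oocytes and 34.9% ± 3.00 in XY oocytes (SD, n = 3 each), and an exact two-sided permutation test over the 3 genotypes gave p = 0.0214. Oas1c took 21.1%, 18.1% and 20.9% in XX1 to XX3, 21.4%, 22.3% and 23.2% in XO1 to XO3, and 29.5%, 23.3% and 23.6% in XY1 to XY3. The 3 genotypes did not overlap in this share, and the exact permutation p was 0.00357, the smallest that groupings of 9 pools into 3 genotypes can give. There were 0.458, 0.428 and 0.527 UMIs of Oas1c per UMI of Oas1e in the XX pools and between 0.624 and 0.935 in the XO and XY pools.

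The shares of Oas1d, Oas1h, Oas1f and Oas1b gave exact permutation p-values of 0.525, 0.939, 0.271 and 0.0821. Oas1d held 18.9% ± 3.26 in XX oocytes, 22.6% ± 5.10 in XO and 18.8% ± 4.31 in XY oocytes (SD, n = 3 each), and Oas1h between 15.8% and 26.1% in all pools. Oas1f reached 1.89% in XO1 and 1.69% in XY1 but at most 0.426% in the other pools. The 6 tests are not adjusted for their number, and they treat the 9 pools as exchangeable although same-numbered XO and XY pools deviated together. When each pool was left out in turn, Oas1e kept an exact p below 0.05 in 9 of 9 cases, with a highest p of 0.0464, and Oas1c in 8 of 9, the exception being XX2 with p = 0.0964. Without XO1 and XY1 the exact p was 0.0476 for Oas1e and 0.0286 for Oas1c. The shares of a total are tied to each other, and when they were taken of the total without Oas1e, none of the other 5 members passed, with p = 0.182 for Oas1c in the exact permutation test.

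**Figure D4:**
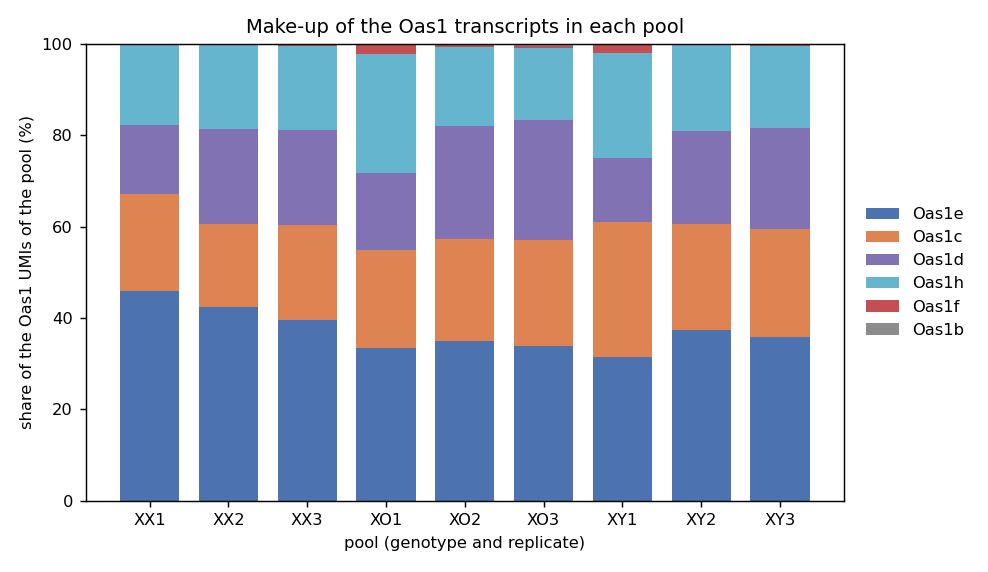
Share of each member in the Oas1 UMIs of a pool, in percent, for the 9 pools. Oas1e holds 39.6% to 46.0% in the XX pools and 31.6% to 37.3% in the XO and XY pools, and Oas1f is visible in XO1 and XY1.

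The surroundings of the cluster were examined next. Among 12 other genes within 200 kb, Gm43069 and Rph3a had a mean of at least 10 normalized CPM. Gm43069 is an antisense RNA gene (chr5:120777796-120805623, plus strand, 3 exons) that covers the whole body of Oas1e and 5430 bases of Oas1c on the opposite strand. Its exons do not overlap those of Oas1e and overlap those of Oas1c by 227 bases. It was at 2820.0, 2492 and 5161 normalized CPM in XX1 to XX3, 381, 8461 and 9078 in XO1 to XO3, and 681, 3239 and 5259 in XY1 to XY3, above Oas1e in every pool. The ratio of its UMIs to those of Oas1e stayed between 1.72 and 2.03 over the 9 pools, while the UMIs of Gm43069 ranged from 735 to 17421. The reads were aligned as stranded, but whether strand was used in the counting is not given in the sources used here. Without it, UMIs of the antisense gene and of Oas1c cannot be told apart in the exonic bases they share, which limits the level and share of Oas1c.

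Rph3a, which encodes the vesicle protein rabphilin 3A and lies beyond Oas1d, was at 29.6, 32.2 and 60.9 normalized CPM in XX1 to XX3, 17.1, 164 and 184 in XO1 to XO3, and 27.9, 56.3 and 117 in XY1 to XY3. Its log2 difference (XX minus XO) was -1.57 ± 0.79 (SE, unadjusted p = 0.0757 in edgeR). Oas3, whose start lies 135 bases from that of Gm43069, was at 0.518 to 11.9 normalized CPM.

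**Figure D5:**
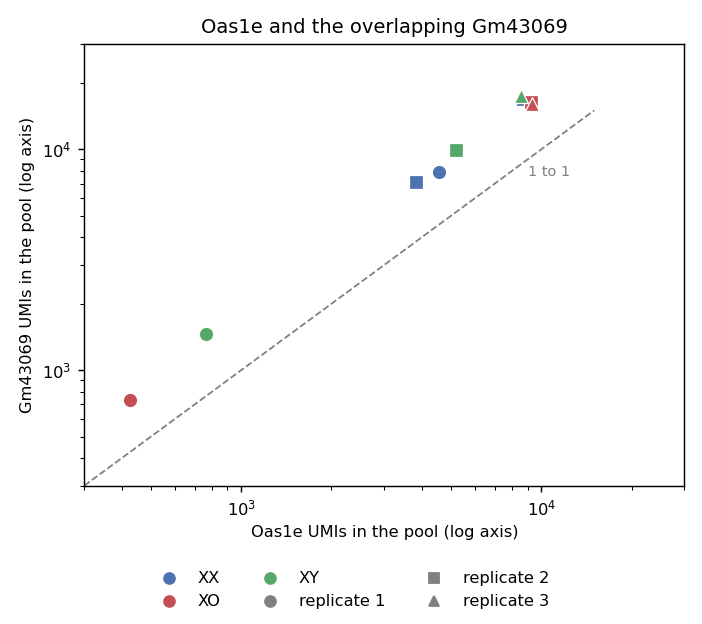
UMIs of Gm43069 against UMIs of Oas1e in the 9 pools, both on log axes, with a dashed 1 to 1 line. The points follow a line above it, at 1.72 to 2.03 UMIs of Gm43069 per UMI of Oas1e, from XO1 at the lower left to XX3, XO2, XO3 and XY3 at the upper right.

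The genes whose levels were most like the Oas1 total over the 9 pools were Me1, which encodes malic enzyme, the sulfotransferase gene Sult5a1, Gm45886, Pdcl3 and Efcab6, with Pearson coefficients of 0.995 to 0.997 on the log2 scale (n = 9). The nearest gene was Gm43069 for Oas1e, Elp2 for Oas1c, Taf12 for Oas1d, Sult5a1 for Oas1h and Gm14221 for Oas1f, with coefficients of 0.981 for Oas1f to 0.998 for Oas1c and Oas1e. Coefficients above 0.9 with the Oas1 total were common, at 12.2% of the 10987 other tested genes. The share of genes at the higher coefficients given here was not counted. The 5 genes nearest to the total had their lowest levels in XO1 and XY1 too, and all values share the scaling of the libraries.

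Apart from Jak1, no other gene listed for the pathway exceeded 62.7 normalized CPM in any pool. Of the other oligoadenylate synthetase genes, Oas2 reached 1.13, Oasl1 11.3, Oas3 11.9 and Oasl2 18.1 normalized CPM in their highest pool. Pde12, which encodes an enzyme that breaks oligoadenylates down, was between 5.53 and 13.5 normalized CPM, and Abce1, which encodes an ATP-binding cassette protein, between 11.9 and 26.9. Among the sensors of double-stranded RNA, Ddx58 (RIG-I) was between 2.79 and 38.4, Tlr3 between 1.13 and 6.51, and Eif2ak2 (PKR) between 0.565 and 4.14. The kinase Jak1 was the only listed gene with a mean of at least 100, at 93.5 to 129.8 in the 9 pools, and its log2 difference (XX minus XO) was -0.31 ± 0.24 (SE).

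In all, 35 of 42 listed oligoadenylate synthetase, sensor and interferon-response genes were analysed and 17 passed the filter on low counts. In XX against XO, 3 were called lower and 1 higher in XX, against 16.7% of all tested genes called lower. Those lower in XX were the mitochondrial nucleotide kinase gene Cmpk2, with a log2 difference of -1.78 ± 0.40 (SE, unadjusted p = 0.00131 in edgeR), the signalling adaptor gene Mavs at -2.24 ± 0.76, and Oasl2 at -1.74 ± 0.70. Xaf1, an interferon-stimulated gene linked to cell death, was the gene higher in XX, at 1.14 ± 0.47. Cmpk2 was also called lower in XY than in XO oocytes, at -1.38 (unadjusted p = 0.00587 in edgeR), and no listed gene was called by edgeR or DESeq2 between XX and XY oocytes. None passed the Benjamini-Hochberg adjustment over all genes in these edgeR tests. The median log2 difference of the 17 genes in XX against XO was -0.57, and that of all tested genes -0.46. Without XO1 and XY1, 9 listed genes were lower and 1 higher in XX than in XO oocytes, when 41.7% of all tested genes were called.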

How the data were processed

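RNA of 9 pools of oocytes was analysed. Paired reads were aligned by the authors with HISAT2 in stranded mode, on GRCm38 (mm10) and Gencode, tools also named in the submitters' processing notes, and deposited UMI counts of 5′ ends per gene, with 79 ERCC spike-ins and 1 further entry without UMIs. A signal matrix deposited by the authors, called normalized CPM, equals the counts times 1 constant per pool. A further deposited matrix is on a log2 scale and was cleared of batch effects by the authors, using sva. The XO column without a number was matched to XO1 by its description.

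Counts were tested with edgeR 4.0.16 (filterByExpr, quasi-likelihood F test, spike-in factors, 9 pools in 1 fit, two-sided), which left 10993 genes. A gene was called at an unadjusted p below 0.05, the threshold of the study, with Benjamini-Hochberg values beside it. The filter kept 6 of 8 members. Alternatives used DESeq2 1.42.0, limma 3.58.1 and sva 3.50.0, and the scripts were tested on simulated data. Shares of members with at least 3 UMIs in every pool were compared by exact permutation of the F statistic. Floors of 3 UMIs cover counting error only. Coding sequences were aligned with Biopython 1.88.

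Replicate numbers were checked by the correlation, across tested genes, of deviations from genotype means. It was 0.83, 0.278 and 0.773 for same-numbered XO and XY pools, which were taken as paired from these values alone. Different-numbered XO and XY pools lay between -0.824 and 0.721, the highest being XO2 with XY3. The values thus do not single out the numbered pairs, and the block was an alternative, not part of the main fit. Same-numbered XX and XO pools gave 0.468, -0.447 and 0.679, and XX and XY pools 0.435, -0.060 and 0.726. These were not taken as paired.

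Named are the 8 members, listed genes that were called or reached a mean of 100 normalized CPM, other genes within 200 kb with a mean of at least 10, and the genes nearest in pattern, 5 to the Oas1 total and 1 to each member with a mean of at least 10. Beyond this rule, the oocyte markers, Pecam1, Cdh5, Kdr and the other pathway genes given by their range are named for context, after their values were seen. Some items that the rule would name are not reported here. The members, lists and markers were chosen with earlier results of these data known.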

Additional observations from a re-analysis of the deposited data

How the results depend on the processing

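The number of Oas1 members called (1 in XX against XO, 0 in XX against XY, 0 in XY against XO, and given in this order) changed with several choices, and the cause of these changes was not tested. Without the filter on low counts it was 4, 1 and 5, when 14.1%, 4.33% and 9.75% of all genes were called. With 2 surrogate variables it was 1 in each comparison, when 14.3%, 20.4% and 18.2% were called. In XX against XO Oas1f lost its call there and Oas1d was called. In the batch-regressed matrix it was 5, 2 and 4, of which 4, 1 and 4 were higher in the first genotype, when 44.1%, 23.1% and 44.0% of the genes were called. DESeq2 gave 1 in XY against XO, when 10.2% of all tested genes were called. Adjusted p below 0.05 gave 0 in each comparison of the filtered edgeR fit to 9 pools, whereas other fits passed it, Oas1f in XX against XO with an adjusted p of 0.0282 in DESeq2 and 1.26e-05 in edgeR without the filter. In all, 178 genes passed the adjustment in that comparison in DESeq2 and 1607 in edgeR without the filter. Leaving out 1 pool at a time gave 1 to 6, 0 to 1 and 0 to 6, when 8.67% to 36.9%, 3.30% to 11.1% and 3.74% to 32.1% of all tested genes were called. In alternatives chosen after seeing the data, leaving out XO1 and XY1 gave 6, 1 and 6, and leaving out every replicate 1 gave 6, 0 and 6. Of all tested genes, 41.7%, 15.7% and 27.8% were called in the first of these fits and 37.2%, 10.8% and 25.8% in the second. The listed pathway genes called (4, 0 and 1) became 12, 2 and 8 without the filter, 2, 1 and 2 with surrogate variables, 8, 3 and 10 in the batch-regressed matrix, 2 in XX against XO by limma on log2 values with either pseudocount, 0 in every comparison after adjustment, 10, 1 and 8 without XO1 and XY1, 10, 1 and 6 without every replicate 1, and 1 to 11, 0, and 1 to 10 with 1 pool left out. The shares of all genes given above for these fits apply to the listed genes too, and limma on log2 values called 12.2% of all tested genes in XX against XO. The members whose share of the Oas1 total differed (2) became 0 in the total without Oas1e and 1 to 3 with 1 pool left out.

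The replicate block was only an alternative, since the numbered pairs were not singled out by the data in XY with XO. It gave 2, 1 and 2 members, and 3 listed genes in XY against XO, when 23.0%, 9.16% and 16.6% of all tested genes were called. With scaling by TMM as well, an alternative chosen after seeing the data, the block gave 2, 1 and 1 members and 2 listed genes in XY against XO. In that fit 18.0%, 8.57% and 15.6% of all tested genes were called. In XX against XY the sign of Oas1c and Oas1d turned under the block, to 0.23 and 0.61, and under the block with TMM to 0.37 and 0.73, where the log2 differences of Oas1e and Oas1h in XX against XO became 0.46 and 0.028.

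Further signs turned as follows, in log2 differences. Between XX and XY, Oas1d was at 0.15 with DESeq2, 0.16 with median-of-ratios factors and 0.11 with TMM, and Oas1c at 0.0055 with median-of-ratios factors. By limma with a pseudocount of 1 and of 0.5, Oas1d was at 0.35 and 0.35 and Oas1b at -0.031 and -0.040, and in XX against XO Oas1e was at 0.010 and 0.011. With surrogate variables Oas1h was at -0.023 between XX and XY, Oas1e at 0.19 in XX against XO and Oas1c at 0.12 in XY against XO. Without XO1 and XY1, Oas1b, Oas1e and Oas1h were at -0.24, -0.20 and -0.40 between XX and XY, and without every replicate 1 Oas1e and Oas1h were at -0.11 and -0.24. In the batch-regressed matrix Oas1b, Oas1c, Oas1d, Oas1e and Oas1h were at 0.40, 1.47, 1.59, 1.96 and 1.34 in XX against XO and at 0.34, 1.37, 1.14, 1.23 and 1.02 in XY against XO, and Oas1c and Oas1d at 0.10 and 0.45 between XX and XY. With 1 pool left out, the range between XX and XY was -1.12 to 0.89 for Oas1b, -0.65 to 0.37 for Oas1c, -0.58 to 0.65 for Oas1d, -0.20 to 0.86 for Oas1e and -0.41 to 0.55 for Oas1h. Oas1f kept its sign in all 3 comparisons under every alternative but not its size. With surrogate variables it was at -0.71 in XX against XO and -0.05 in XY against XO, and in the batch-regressed matrix at -0.05 in XY against XO.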
